A study of Rattus norvegicus with 2 samples.

Results

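The endothelial cells of the female rat hypothalamus at PND 29 were examined in 1 Control library and 1 SC300 library. A droplet barcode was taken as an endothelial cell when it had at least 200 detected genes, at most 30% of its UMIs in mitochondrial genes, at least 3 of the markers *Cldn5*, *Flt1*, *Slco1a4* and *Itm2a*, and fewer than 2 of *Kcnj8*, *Abcc9*, *Pdgfrb*, *Snap25*, *Mog*, *Csf1r* and *Gja1*, which are genes of mural cells, neurons, oligodendrocytes, microglia and astrocytes. *Pecam1*, a 5th marker of the rule, was not used here. These criteria gave 415 cells of 7847 kept barcodes, 226 of 3928 in Control and 189 of 3919 in SC300. The criteria are measured values, so the levels of these genes describe the selection and are not results.

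Each library was made from hypothalami of 3 pooled Sprague Dawley females, 4 weeks old. The SC300 rats had received at PND 0.5 a silicone capsule holding 300 µg of estradiol benzoate (EB), an ester of estradiol. The sample labels call the Control rats intact, whereas the methods of the study describe a capsule with oil only, and the data do not tell these apart. The capsule acts on the whole animal, and with 1 library per group a difference between the groups cannot be told apart from a difference between these pools of rats, dissections or libraries, so no P-value is given and each interval covers counting error only.

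Endothelial cells line the blood vessels. In most of the brain they form the blood-brain barrier, in which tight junctions close the path between cells and transporters on the luminal and abluminal membranes carry glucose, amino acids, lactate, hormones and iron, while efflux pumps return lipophilic compounds to the blood. Wnt signals from the neural tissue keep this barrier state, and the vessel wall also answers to circulating steroids and cytokines. Around the median eminence of the hypothalamus the capillaries are fenestrated and lack the barrier.

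The Control library as deposited held 4488 barcodes and 52004789 UMIs, and the SC300 library 4524 barcodes and 57013099 UMIs. Of these barcodes 4296 and 4379 had at least 200 detected genes. The endothelial cells had a median of 5332 UMIs and 1920 genes in Control and of 6001 UMIs and 2103 genes in SC300, and the median mitochondrial share was 12.1% and 13.4%. Altogether they held 1483076 and 1487686 UMIs after haemoglobin genes were left out, so both groups had nearly the same total behind each gene level. Haemoglobin genes took 11.1% of the endothelial UMIs in Control and 5.78% in SC300, and 13 and 3 cells had over 50% of their UMIs in them. The libraries shared 9 barcodes, none of which was an endothelial cell in both libraries.

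The endothelial cells of both libraries carried the vessel genes of the rule at high levels. *Cldn5*, the main claudin of brain vessels, stood at 7373 CPM (UMIs of a gene per 1000000 endothelial UMIs without haemoglobin) in Control and at 6858 CPM in SC300, and 98.7% and 98.4% of the cells had at least 1 UMI. *Flt1*, a VEGF receptor, was detected in 98.2% and 98.9% of the cells, *Slco1a4*, an organic anion transporter, in 94.7% and 93.1%, and *Itm2a* in all Control cells and 99.5% of the SC300 cells. Microglia, which should lack claudin 5, were barcodes with at least 3 of *Csf1r*, *P2ry12*, *Cx3cr1*, *Tmem119* and *C1qa*. They also had fewer than 2 of *Cldn5*, *Flt1*, *Pdgfrb*, *Snap25*, *Mog* and *Gja1*. Of these cells 4.33% and 4.53% had a *Cldn5* UMI at median depths of 7115 and 7762 UMIs. Since *Cldn5* is among the genes limited in microglia, this share is partly set by the selection and is no independent background.

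Besides the selection genes, the genes most concentrated in endothelial cells relative to all other kept barcodes included the carbonic anhydrase *Car4*, the sialomucin *Emcn*, the adhesion molecule *Icam2*, the chemokine *Cxcl12*, the vessel-secreted *Egfl7*, the Wnt deacylase *Notum*, the transcription factors *Sox18* and *Foxf1* and the efflux pump *Abcg2*. Their levels were between 12.6 and 15.6 times those of the other barcodes in Control and between 9.79 and 14.2 times in SC300 for the 20 leading genes, a description since the cells were chosen on genes of the same barcodes, and since barcodes left out by the rule count among the others. The rule counts the barrier genes *Cldn5* and *Slco1a4*, so vessels without them are under-represented among these cells. *Plvap*, the diaphragm protein of fenestrated capillaries, had 2 UMIs in 1 Control cell and none in SC300. For 0 of 189 cells the limit on cells with a UMI was 1.59% (3 cells of the total), or 1.93% as a Clopper-Pearson limit. Neither value limits the cells that express the gene. The planned comparison of cells with and without *Plvap* could therefore not be made.

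The rule kept less than the whole vessel fraction. At least 3 endothelial markers were present in 511 Control and 479 SC300 barcodes, and 285 and 290 of them were left out because 2 or more genes of other cell types were also detected. These left-out barcodes were deep, with medians of 13065 and 15960 UMIs, and 268 and 282 of them carried a mural gene, most often *Abcc9* (251 and 266 barcodes). Just inside the limit, cells with 1 such gene had 6563 and 5761 CPM of *Cldn5*, and just outside, barcodes with 2 had 5343 and 6416 CPM. At the marker limit, where *Cldn5* is itself counted by the rule, the 19 cells per library with 3 markers had 1151 and 1680 CPM of it and barcodes with 2 markers 75.9 and 23.8 CPM.

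Endothelial cells made up 5.75% of kept barcodes in Control (Clopper-Pearson 95% interval 5.05 to 6.53) and 4.82% in SC300 (4.17 to 5.54). The ratio of the shares was 0.838 with an interval of 0.687 to 1.02, so a difference was not detectable at this depth. When every kept barcode was thinned to 2000 UMIs, which leaves fewer genes of other cell types to be detected, the shares were 8.80% and 7.23% and their ratio 0.822 (0.696 to 0.969). The thinning left out 303 Control and 172 SC300 barcodes that were shallower.

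Marker genes of other cell types were not evenly spread over the cells. Some of these markers, *Csf1r* included, are genes that the rule limits, so the sums are partly set by the selection. The 8 oligodendrocyte markers summed to 1652 CPM in Control and 5974 CPM in SC300, and 3 cells per library held 76.4% and 90.7% of these UMIs. Without those 3 cells the sums were 390 and 555 CPM. The 4 ependymal markers used stood at 178 and 682 CPM, of which 3 cells held 89.0% and 97.8%, and *Dynlrb2* was the most abundant with 115 and 462 UMIs. Microglial markers were at 56.0 and 281 CPM, with *Csf1r*, *Tmem119* and *P2ry12* at 0 in Control and 82.3% of the SC300 UMIs in 3 cells. Neuronal markers were higher in Control, at 189 and 30.2 CPM, and 3 Control cells held 85.0% of them. The 12 mural markers summed to 358 and 331 CPM and the 10 astrocyte markers to 1605 and 1621 CPM. Thus a few cells per library carried much RNA of another cell type, and a gene level that rests on 3 cells is named as such in what follows.

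**Figure D1:**
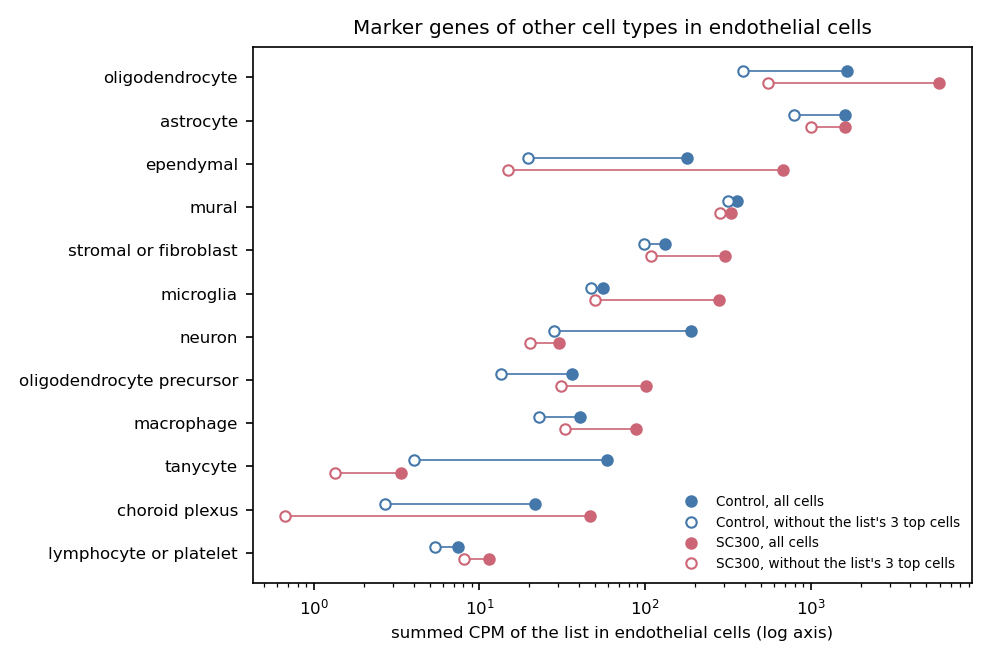
Summed CPM (log axis) of marker gene lists of other cell types in the endothelial cells of each library, over all cells (filled points) and without the 3 cells that hold most UMIs of the list (open points). Oligodendrocyte markers stood at 1652 CPM in Control and 5974 CPM in SC300, and at 390 and 555 CPM without those cells.

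Across the 4100 genes with at least 100 UMIs in both libraries together, 126 (3.07%) were more than 2-fold higher in SC300 and 42 (1.02%) more than 2-fold lower, and the median log2 ratio of SC300 over Control was −0.05. For 117 of the 126 and 20 of the 42 genes, 3 cells of the higher library held at least 50% of the UMIs. Among the other 3835 genes, 9 (0.235%) were more than 2-fold higher and 22 (0.574%) more than 2-fold lower. Together 4.1% of the 4100 genes were past 2-fold. With all cells more genes were past 2-fold in the higher direction, and among genes that do not rest on 3 cells more were in the lower one.

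The 12 highest and 12 lowest ratios showed the same division. For 11 of the 12 highest, 3 SC300 cells held nearly all UMIs: *Gpc3* (3 and 248 UMIs), *Igfbp2* (4 and 183 UMIs), the chemokines *Ccl3* (5 and 104 UMIs) and *Ccl4* (10 and 154 UMIs), the neuropeptide *Hcrt* (10 and 103 UMIs), the complement gene *C1qb* (10 and 101 UMIs), *Col11a1* (24 and 177 UMIs), *Plekhb1* (72 and 496 UMIs), *Klk6* (13 and 89 UMIs), *Odf3b* (23 and 156 UMIs) and *Prelp* (17 and 107 UMIs). The share of these 3 cells ran from 83.3% for *Plekhb1* to all UMIs for *Odf3b*. In the other kept barcodes *Igfbp2* (26.2 and 74.7 CPM) and *Hcrt* (49.7 and 234 CPM) were higher in SC300 too. Lower there were *Gpc3* (51.4 and 28.7 CPM), *Col11a1* (37.2 and 22.5 CPM) and *Odf3b* (32.9 and 19.8 CPM). Of the 12 lowest, 9 rested on 3 Control cells with 59.4% to 96.6% of the UMIs. Among them were *Stmn3*, *Nap1l5*, *Rab3a* and *Zwint*, which neurons express, at 175 and 12 UMIs, 270 and 37 UMIs, 141 and 34 UMIs, and 328 and 91 UMIs in that order. *LOC691995* had 124 and 31 UMIs and *Tmem130* 91 and 24 UMIs. The others of these 9 were *Ifi27l2b* (178 and 8 UMIs), the glutathione transferase *Gsta1* (178 and 41 UMIs) and *Ifit3* (106 and 30 UMIs).

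**Figure D2:**
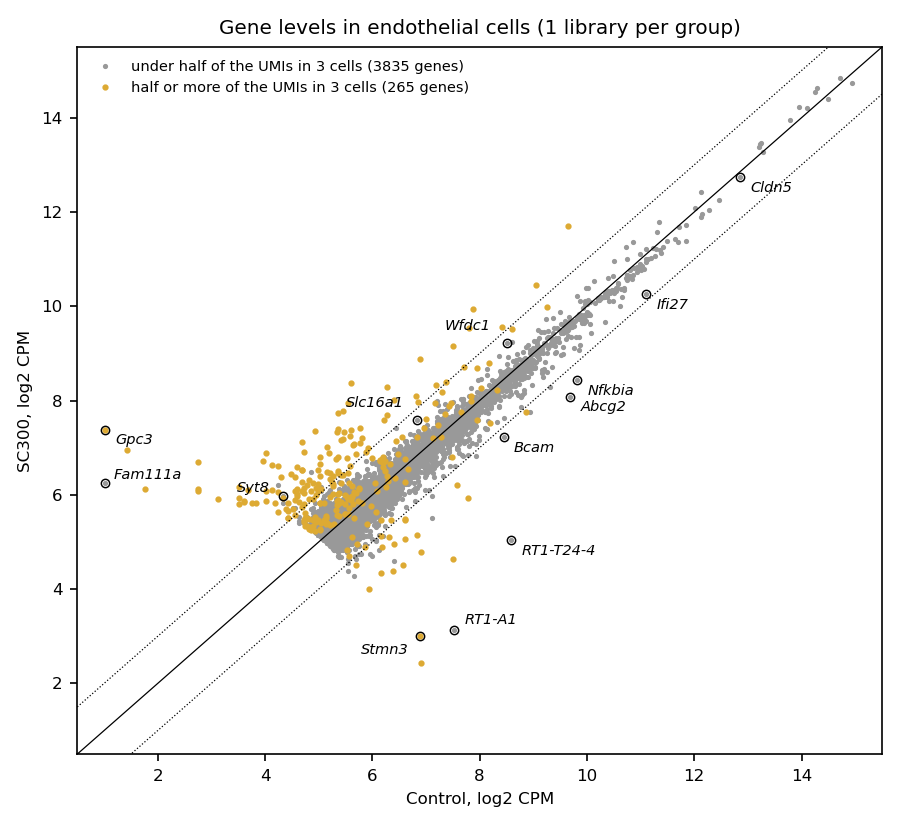
Level of each of 4100 genes in the endothelial cells of the Control library (x axis, log2 CPM) and the SC300 library (y axis, log2 CPM), with a count of 0 set to 3 UMIs; the solid line marks equal levels and dotted lines a 2-fold difference. The 265 genes with at least 50% of their UMIs in 3 cells of the higher library lie mostly above the diagonal, while *Abcg2*, *Nfkbia*, *RT1-A1* and *RT1-T24-4* lie below it with their UMIs spread over many cells.

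*Abcg2*, the luminal efflux pump that returns drugs and sulfated steroids to the blood, was among the genes lower in SC300 that were spread over many cells. It had 1225 UMIs in Control, or 826 CPM (exact Poisson 95% interval 780 to 874), and 404 UMIs in SC300, or 272 CPM (246 to 299). On the log2 scale the ratio of SC300 over Control was −1.60 (−1.77 to −1.44), the Control level being 3.04 times as high. The difference was seen in how many cells had the transcript and in how much they had: 90.3% of Control and 75.1% of SC300 cells had at least 1 UMI, and the median cell had 7.08 and 2.86 UMIs of *Abcg2* per 10000. After thinning to 2000 UMIs the shares were 74.8% and 40.4%. In microglia, as a background, 4.54% and 5.60% of cells had an *Abcg2* UMI. The left-out barcodes with endothelial markers, which the rule did not keep, held 2747 and 1314 UMIs of it (log2 ratio −1.30, −1.40 to −1.21).

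*Nfkbia*, the NF-kappaB inhibitor that is itself induced by NF-kappaB and by glucocorticoids, had 1332 UMIs (898 CPM) in Control and 512 UMIs (344 CPM) in SC300. Its log2 ratio was −1.38 (−1.53 to −1.24), and the median cell had 8.18 and 3.43 UMIs per 10000. A UMI was found in 87.2% and 83.6% of the cells, and after thinning to 2000 UMIs in 75.7% (69.3 to 81.4) and 51.5% (43.7 to 59.2). *Bcam*, a laminin receptor of the vessel wall, counted 517 and 223 UMIs (log2 ratio −1.22, −1.45 to −0.99) and was detected in 82.3% and 60.8% of the cells, or 58.3% and 31.6% after thinning. *Ddit4*, an inhibitor of the growth kinase mTORC1, counted 731 and 324 UMIs (log2 ratio −1.18, −1.37 to −0.99).

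Lower still in SC300 were 2 MHC class I genes. *RT1-A1* had 274 UMIs in 131 Control cells and 13 UMIs in 11 SC300 cells, a log2 ratio of −4.40 (−5.33 to −3.60). *RT1-T24-4* had 570 UMIs in 161 Control cells and 49 UMIs in 38 SC300 cells, a log2 ratio of −3.54 (−4.00 to −3.12). Of the remaining genes among the 12 lowest with UMIs in many cells, *Ubxn8* (75 and 29 UMIs), the selenium carrier *Selenop* (103 and 42 UMIs), the transcriptional coregulator *Cited2* (95 and 39 UMIs) and the kinase *Sik1* (92 and 40 UMIs) had log2 ratios from −1.38 to −1.21. The galectin *Lgals5* (126 and 36 UMIs) and the lipoxygenase *Alox15* (205 and 68 UMIs) were also among them, but were found in 20 and 17 Control cells and in 6 and 8 SC300 cells. Non-globin markers of red blood cell precursors were lower too, with a sum of 334 and 143 CPM, of which 3 cells held 35.8% and 62.4%. Of these markers, *Alas2*, the haem synthesis enzyme, had 363 and 168 UMIs, while *Ahsp* (77 and 34 UMIs) rested on 3 Control cells with 61.0% of the UMIs. All 3 of these markers with at least 50 UMIs were more than 2-fold lower, the lowest at a log2 ratio of −2.36. Of these 3, 2 rested on 3 cells, *Ahsp* included. Among all genes with at least 50 UMIs, 1.53% were more than 2-fold lower. In the 207 Control and 178 SC300 cells with at most 5% haemoglobin UMIs, a limit chosen after seeing the data, *Lgals5* had 3 and 0 UMIs and *Alox15* 10 and 1.

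**Figure D3:**
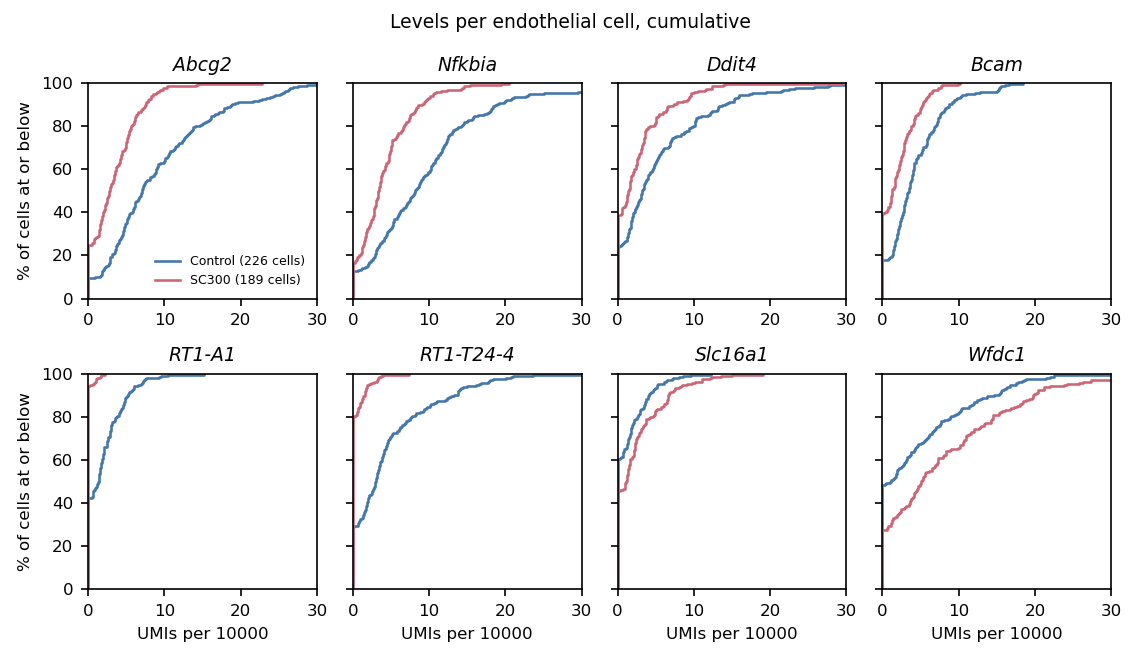
Cumulative share of endothelial cells (y axis, percent) at or below a level of each gene (x axis, UMIs per 10000 UMIs of the cell without haemoglobin) in 226 Control and 189 SC300 cells; the x axis ends at 30. For *Abcg2*, *Nfkbia*, *Ddit4*, *Bcam*, *RT1-A1* and *RT1-T24-4* the SC300 curve runs above the Control curve, that is, at lower levels, and for *Slc16a1* and *Wfdc1* below it.

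In the other direction, *Fam111a*, which encodes a nuclear protease, had no UMI in 226 Control cells and 113 UMIs in 63 SC300 cells. Against a floor of 3 UMIs over the Control group its level in SC300 was at least 37.5-fold higher (log2 5.23), and the counting interval of the log2 ratio began at 4.91. The other kept barcodes showed the same split, with 0.43 CPM in Control and 40.5 CPM in SC300, so it was not limited to endothelial cells. *Syt8*, a synaptotagmin, had 30 and 93 UMIs (log2 ratio 1.63, interval 1.02 to 2.27), and 7.52% and 27.5% of the cells had a UMI. No *Syt8* UMI was found in microglia of either library. *Cxcr4*, the receptor for *Cxcl12*, had 43 and 133 UMIs (1.62, 1.12 to 2.16) and the apolipoprotein *Apoc1* had 30 and 84 UMIs (1.48, 0.86 to 2.13). *Apoc1* was higher in SC300 in other cells too, with 73.4 and 136 CPM in the other kept barcodes, a log2 ratio of 1.72 in microglia and, at 215 and 489 CPM, of 1.19 in astrocytes. The part of RNA from other cells in its level here was not tested. *Adm*, which encodes the vasodilator adrenomedullin, had 34 and 78 UMIs (1.19, 0.59 to 1.82). For *Cxcr4* and *Adm*, 3 SC300 cells held 41.4% and 38.5% of the UMIs.

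The 9 genes more than 2-fold higher that do not rest on 3 cells also included the kinase *Gak* (35 and 78 UMIs), the RNA-binding *Pcbp4* (49 and 107 UMIs), the fatty acid transporter *Slc27a1* (49 and 101 UMIs) and the neuropeptide *Oxt* (28 and 110 UMIs). The lowest log2 ratios across the alternatives were 0.13 for *Gak*, 0.20 for *Pcbp4* and 0.02 for *Slc27a1*, all under 2-fold. The glycoprotein *Gpm6b* lay just under 2-fold (129 and 255 UMIs). *Oxt* is made by neurons, and the other kept barcodes held 1695 and 4362 CPM of it. At least 1 UMI of *Oxt* was seen in 10.6% and 31.7% of endothelial cells and in 9.28% and 30.8% of microglia. The part of RNA from other cells in its level here was not tested. *Wfdc1*, which encodes a secreted protein, was higher in SC300 by less than 2-fold but at a higher level, with 544 and 892 UMIs (367 and 600 CPM; log2 ratio 0.71, 0.55 to 0.87) and 51.8% and 72.5% of cells with a UMI.

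Because *Nfkbia* and *Abcg2* had the most UMIs of the genes more than 2-fold lower, haemoglobin genes aside, and *Ifi27* the most of the interferon-responsive genes, the 250 bases before their transcription starts are shown from RefSeq (GRCr8). The windows are *Abcg2* at chr4:89075224-89075473 on the plus strand, *Nfkbia* at chr6:78597073-78597322 on the minus strand and *Ifi27* at chr6:128355062-128355311 on the plus strand, each written 5′ to 3′ along the gene. Capitals mark a cAMP response element (TGACGTCA), a kappaB site or the core of an interferon-stimulated element, on either strand.
Abcg2: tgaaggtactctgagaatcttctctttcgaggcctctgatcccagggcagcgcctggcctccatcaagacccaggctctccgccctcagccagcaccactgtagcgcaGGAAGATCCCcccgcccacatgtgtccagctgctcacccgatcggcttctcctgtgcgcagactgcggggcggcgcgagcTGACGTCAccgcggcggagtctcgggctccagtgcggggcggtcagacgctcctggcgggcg
Nfkbia: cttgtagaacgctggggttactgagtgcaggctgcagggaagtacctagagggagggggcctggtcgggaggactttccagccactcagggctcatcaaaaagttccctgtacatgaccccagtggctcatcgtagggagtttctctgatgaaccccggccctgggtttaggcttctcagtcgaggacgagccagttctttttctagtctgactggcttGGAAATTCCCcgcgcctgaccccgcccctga
Ifi27: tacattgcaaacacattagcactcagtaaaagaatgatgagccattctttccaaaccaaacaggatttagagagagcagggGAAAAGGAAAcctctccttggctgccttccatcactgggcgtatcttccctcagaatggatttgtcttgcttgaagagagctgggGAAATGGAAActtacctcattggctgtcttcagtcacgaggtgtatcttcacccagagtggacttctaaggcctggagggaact

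In *Abcg2* the cAMP response element began 62 bases and a kappaB match 142 bases before the start. *Nfkbia* had a kappaB match 31 bases before the start, and *Ifi27* had 2 interferon element cores, 169 and 84 bases before it. These letters were found in the windows of 1.78%, 1.15% and 3.61% of the 27457 genes in the table, and of 3.34%, 1.28% and 3.12% of the 3207 genes with a window and at least 100 UMIs in endothelial cells. Of the 22 genes spread over many cells and more than 2-fold lower, 19 had a window, and 1 held the cAMP element, 2 the kappaB site and 2 the interferon core. The core was present in 10 of 12 interferon-responsive genes with a window. The palindromic elements of the glucocorticoid receptor and the estrogen receptor were found in none of the 19. They were present in only 1 and 6 of the 27457 windows and in none of the 3207. Their absence from the 19 therefore carries no information about these genes. A match describes the letters of a window and no binding was measured.

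Transporters of the barrier were on the whole slightly lower in SC300. Of 29 listed genes 21 had at least 50 UMIs, and 17 of them had a log2 ratio below 0, with a median of −0.31 beside −0.03 over all 6334 genes with at least 50 UMIs, of which 54.5% were below 0, the share to set beside the counts of the lists that follow. None was more than 2-fold higher and 2 were more than 2-fold lower, beside 4.03% and 1.53% of all genes (5.56% either way). Of genes that do not rest on 3 cells the shares were 0.33% and 0.904%. These shares too are to be set beside the counts of the lists that follow. The 2 lower transporters were *Abcg2* and the zinc exporter *Slc30a1*, with 99 and 48 UMIs (−1.05, −1.58 to −0.54). Next came the glutamine transporter *Slc38a5*, with 276 and 146 UMIs (−0.92, −1.22 to −0.63, but 0.75 with at most 10% mitochondrial UMIs), and the transferrin receptor *Tfrc*, with 967 and 626 UMIs (−0.63, −0.78 to −0.49). The 4 most abundant genes of the list were less than 1.5-fold apart and all lower in SC300, although *Slc2a1* changed sign in 4 alternatives: *Slc3a2*, the heavy chain of the large amino acid transporter, had 1823 and 1525 CPM, the glucose transporter *Slc2a1* 1539 and 1411 CPM, the thyroid hormone transporter *Slco1c1* 1485 and 1287 CPM, and the scaffold protein *Slc9a3r2* 893 and 648 CPM.

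The lactate and ketone body transporter *Slc16a1* went the other way among the transporters. Control held 169 UMIs (114 CPM) and SC300 288 UMIs (194 CPM) of it. The log2 ratio was 0.76 (0.49 to 1.05), and 39.8% and 55.0% of the cells had a UMI. In the left-out barcodes with endothelial markers the log2 ratio was 0.88 (0.69 to 1.08). In microglia 3.51% and 4.09% of the cells had a UMI of *Slc16a1*.

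Junction genes differed little. Of 11 tight and adherens junction genes with at least 50 UMIs, 9 had a ratio below 0, with a median of −0.20 and none past 2-fold. *Esam*, an adhesion molecule of the vessel wall, stood at 948 and 892 CPM, *Jam2* at 359 and 294 CPM, *Tjp1*, which links junctions to actin, at 312 and 261 CPM, and occludin (*Ocln*) at 284 and 243 CPM. The basement membrane list had a median of 0.02 over 15 genes, with *Sparc* at 4116 and 4315 CPM, *Sparcl1* at 723 and 725 CPM and the collagen *Col4a1* at 613 and 639 CPM. The list for caveolae and transcytosis had a median of −0.05 over 9 genes, and the caveolin *Cav1* stood at 550 and 641 CPM.

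In the Wnt list, which holds receptors, targets and transcription factors of the barrier state, 12 of 16 genes were below 0 and the median was −0.18. The receptor *Fzd4* was more than 2-fold lower, with 82 and 40 UMIs (−1.04, −1.62 to −0.48). It was lower by less than 2-fold in the left-out barcodes with endothelial markers (−0.39), and alternatives reached −0.50. *Sox17*, a transcription factor, had 608 and 435 UMIs (−0.49, −0.67 to −0.31), but was at 0.11 with none of the 7 other genes detected. The targets *Apcdd1* (440 and 420 UMIs) and *Lef1* (355 and 313 UMIs) had intervals that include 0. The target *Notum* was higher, with 228 and 327 UMIs (0.52, 0.27 to 0.77).

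Among the other endothelial genes 18 of 24 were below 0, with a median of −0.13 and none past 2-fold, but the median turned positive in 5 of the alternative selections of cells. Besides *Esam*, the most abundant were *Ramp2*, a coreceptor for adrenomedullin, at 1779 and 1584 CPM, and *Egfl7*, at 804 and 727 CPM. The lowest ratios were those of the transcription factor *Sox18*, with 649 and 345 UMIs (−0.92, −1.11 to −0.73), and of the receptor *Tie1*, with 659 and 411 UMIs (−0.69, −0.87 to −0.51). The highest was that of *Vwf*, the clotting factor, with 548 and 724 UMIs (0.40, 0.24 to 0.56). In the list of VEGF, angiopoietin and TGF-beta signalling the median was −0.08 over 15 genes: the VEGF receptor *Kdr* stood at 339 and 385 CPM, endoglin (*Eng*) at 515 and 611 CPM, and the BMP targets *Id1* and *Id3* at 2057 and 1743 CPM and at 1289 and 1223 CPM.

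Vessel segments were described from lists of arterial, capillary and venous genes. Medians were −0.27 over 8 arterial genes, −0.06 over 10 capillary genes and 0.14 over 6 venous genes. They changed sign in 2, 10 and 6 of 16 alternatives in that order. The arterial gap junction gene *Gja4* was the only member past 2-fold, with 39 and 16 UMIs, while *Alpl* had 255 and 193 UMIs and *Unc5b* 159 and 175 UMIs. Of the capillary genes *Car4* was higher in SC300 (1126 and 1484 CPM, 0.40, 0.31 to 0.49), and *Cxcl12* and *Rgcc* stood at 2030 and 1914 CPM and at 852 and 786 CPM. Of 8 genes for growing vessel tips, with a median of 0.16, 2 were more than 2-fold higher, *Cxcr4* and *Adm*. Among all genes with at least 50 UMIs this share was 4.03%, or 0.33% of those that do not rest on 3 cells. The apelin receptor *Aplnr* had 233 and 182 UMIs. In the left-out barcodes with endothelial markers *Cxcr4* (0.44) and *Adm* (0.50) were higher in SC300 by less than 2-fold.

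When cells were divided by the number of detected arterial and venous genes, 46.5% of Control and 50.3% of SC300 cells had more arterial genes, 31.4% and 28.6% more venous genes, and 22.1% and 21.2% as many of each. These are ranges and not vessel types, since 41 and 38 of the arterial and 35 and 25 of the venous cells lay only 1 gene from the limit. *Abcg2* was lower in SC300 in each range, with log2 ratios of −1.24 (−1.47 to −1.02) in the arterial, −2.36 (−2.78 to −1.96) in the equal and −1.71 (−2.02 to −1.41) in the venous range. *Nfkbia* had −1.22, −1.53 and −1.52, *Ifi27* −0.72, −1.20 and −0.81, and *RT1-A1* −4.55, −4.14 and −4.52 in the same order. *Slc16a1* had 1.30 (0.88 to 1.73), −0.26 (−0.89 to 0.39) and 0.64 (0.15 to 1.14).

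Genes that respond to glucocorticoids were lower in SC300 as a list. All 10 members with at least 50 UMIs, of 14 listed, had a log2 ratio below 0, beside 54.5% of all genes, and the median was −0.74. Of these 2 were more than 2-fold lower, *Nfkbia* and *Ddit4*. The metallothionein *Mt1* had 1279 and 826 UMIs (−0.64, −0.76 to −0.51) and the kinase *Sgk1* 412 and 250 UMIs (−0.73, −0.96 to −0.49). *Cdkn1a*, a cell cycle inhibitor, had 326 and 170 UMIs (−0.94, −1.22 to −0.67), *Tsc22d3*, known as the glucocorticoid-induced leucine zipper, 375 and 213 UMIs (−0.82, −1.07 to −0.57), and the transcription factor *Klf9* 376 and 226 UMIs (−0.74, −0.98 to −0.50). *Sult1a1* had 83 and 81 UMIs. Most members are also induced by other stimuli, and corticosterone was not measured here.

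Receptors for circulating hormones had low counts in these cells. Of 18 listed, 6 had at least 50 UMIs, with a median of −0.16 and none past 2-fold, and the most abundant was the thyroid hormone receptor *Thra*, with 111 and 104 UMIs. The estrogen receptors *Esr1* and *Esr2* had no UMI in Control, where 0 of 226 cells allows up to 1.33% of cells with a UMI, and 1 UMI each in SC300. At these counts the share of cells that express them cannot be told.

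Immediate early genes, which are transcribed within minutes of a stimulus, had a median of −0.47, and 15 of 17 were below 0. The most abundant were *Jun* with 2454 and 1999 UMIs (−0.30, −0.39 to −0.21), *Btg2* with 2374 and 1752 UMIs (−0.44, −0.53 to −0.35), *Fos* with 2142 and 1928 UMIs (−0.16, −0.25 to −0.07) and the phosphatase *Dusp1* with 1911 and 1200 UMIs (−0.68, −0.78 to −0.57). *Jund* and *Klf4* had ratios of −0.77 and −0.69, and *Klf6*, with 100 and 49 UMIs, was the only member past 2-fold. Heat shock genes had a median of 0.21 over 9 genes, which was negative in 4 of 16 alternatives (down to −0.24) and in the left-out barcodes with endothelial markers (−0.17), astrocytes (−0.18) and mural cells (−0.24). *Hspa1b* stood at 1723 and 2063 CPM and *Hspb1* at 899 and 1189 CPM, while *Hsp90ab1* (1951 and 1789 CPM) and *Hspa8* (1358 and 1112 CPM) were lower in SC300. For *Hsp90aa1*, with the highest ratio (0.90), 3 SC300 cells held 66.3% of the UMIs.

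**Figure D4:**
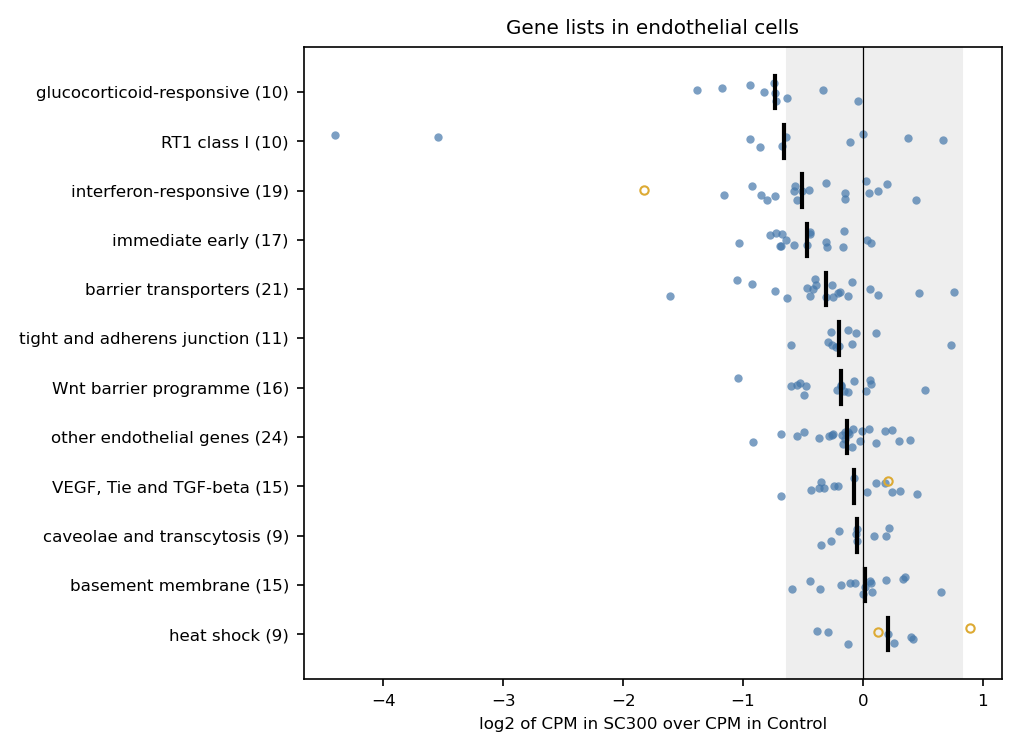
Log2 ratio of CPM in SC300 over Control for members of 12 gene lists with at least 50 UMIs in endothelial cells (their number in brackets); thick bars mark list medians, open symbols genes with at least 50% of their UMIs in 3 cells, and the grey band holds 90% of all 6334 genes. Medians ran from −0.74 for glucocorticoid-responsive genes to 0.21 for heat shock genes.

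Interferon-responsive genes had a median of −0.51, and 14 of 19 were below 0, but with at most 10% mitochondrial UMIs the median was 0.021. *Ifi27*, the most abundant, had 3274 UMIs (2208 CPM) in Control and 1819 UMIs (1223 CPM) in SC300. Its log2 ratio was −0.85 (−0.94 to −0.77), but ran from −1.05 to −0.03 across the alternatives, so the difference was not kept in all of them. The antiviral membrane protein *Ifitm3* had 580 and 470 UMIs (−0.31, −0.49 to −0.13), *Ifitm2* 286 and 314 UMIs (0.13, −0.11 to 0.37) and the ubiquitin-like *Isg15* 282 and 193 UMIs (−0.55, −0.82 to −0.28). With at most 10% mitochondrial UMIs, *Ifitm3* was at 0.40 and *Isg15* at 0.071, and with no limit on the 7 other genes at 0.037 and 0.41. More than 2-fold lower were the transcription factor *Irf1*, with 69 and 31 UMIs, and *Ifit3*, for which 3 Control cells held 59.4% of the UMIs.

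MHC class I genes, called RT1 in the rat, were uneven. Of 10 RT1 class I genes with at least 50 UMIs, 7 were below 0, 2 of them more than 2-fold (*RT1-A1* and *RT1-T24-4*), with a median of −0.66, which was 0.24 with at most 10% mitochondrial UMIs. *RT1-CE10* had 405 and 254 UMIs (−0.68, −0.91 to −0.45) and *RT1-S3* 364 and 201 UMIs (−0.86, −1.12 to −0.61). *RT1-CE4* was equal, with 544 and 546 UMIs, and *RT1-T24-3* was higher, with 74 and 118 UMIs (0.67, 0.24 to 1.11). Their shared light chain, *B2m*, stood at 4502 and 3997 CPM. RT1 genes are near copies of each other and differ between haplotypes, so reads of 1 gene may have been counted for another or lost, and the level of a single RT1 gene is uncertain.

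The same genes were compared in other cells of the libraries with the same ratio. In the left-out barcodes with endothelial markers, all 12 glucocorticoid-responsive genes with at least 50 UMIs were below 0, with a median of −0.46, and the immediate early median was −0.26. The interferon and RT1 medians there were −0.01 and −0.002, and that of the barrier transporters −0.03. *Ddit4* (−1.28), *Nfkbia* (−1.04), *Cdkn1a* (−0.96), *Sox18* (−0.56), *Bcam* (−0.52) and *Ifi27* (−0.54) were lower in both sets, and *Syt8* (1.71), *Apoc1* (1.53), *Car4* (0.61), *Vwf* (0.54) and *Wfdc1* (0.39) higher in both. *Alox15* (0.44), *Isg15* (0.85), *B2m* (0.099, 0.070 to 0.13, against −0.17, −0.22 to −0.12), *Slc27a1* (−0.31, −0.59 to −0.03) and *Hsp90aa1* (−0.31) had the opposite sign in the left-out barcodes, as had *Gak* (−0.17) and *Pcbp4* (−0.12), whose intervals there include 0. Closer to equal there than in the endothelial cells were *Slc38a5* (−0.037, −0.20 to 0.12), *Sox17* (−0.0083), *Irf1* (−0.062), *RT1-S3* (−0.10), *RT1-CE10* (−0.16), *Tie1* (−0.20) and *Ubxn8* (−0.24), among others. Of the genes with the highest ratios that rested on 3 cells, *C1qb*, *Ccl3*, *Col11a1*, *Gpc3*, *Hcrt*, *Klk6*, *Odf3b* and *Plekhb1* were lower in SC300 there. *Igfbp2* (1.03), *Ccl4* (0.62) and *Prelp* (0.60) were higher there.

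In 485 and 464 microglia, *RT1-A1* had a log2 ratio of −4.75 and in 1224 and 1244 astrocytes, chosen by *Gja1*, *Agt*, *Aqp4*, *Slc1a2* and *Ntsr2* in the same way, of −5.22, close to the −4.40 of endothelial cells. *RT1-T24-4* had −0.67 in microglia and −4.28 in astrocytes. *Nfkbia* had −0.24 (−0.29 to −0.18) in microglia, 0.10 (−0.08 to 0.28) in astrocytes and 0.35 (−0.28 to 1.01) in 50 and 74 mural cells, beside −1.38 in endothelial cells, and these intervals did not overlap with the endothelial one. *Mfge8*, which bridges dying cells to phagocytes, had 943 and 467 UMIs in endothelial cells (−1.02), but 0.41 in astrocytes, 0.20 in microglia and 0.40 in mural cells. *Ifi27* was lower in all of them, at −1.31 in microglia, −1.13 in astrocytes and −0.99 in mural cells. *Tsc22d3* had −1.65 in microglia and −0.52 in astrocytes. The glucocorticoid-responsive list had medians of −0.46 in microglia, −0.24 in astrocytes and −0.28 in mural cells, and the immediate early list −0.08, 0.09 and 0.39. No test of these differences between cell types was possible with 1 library per group.

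**Figure D5:**
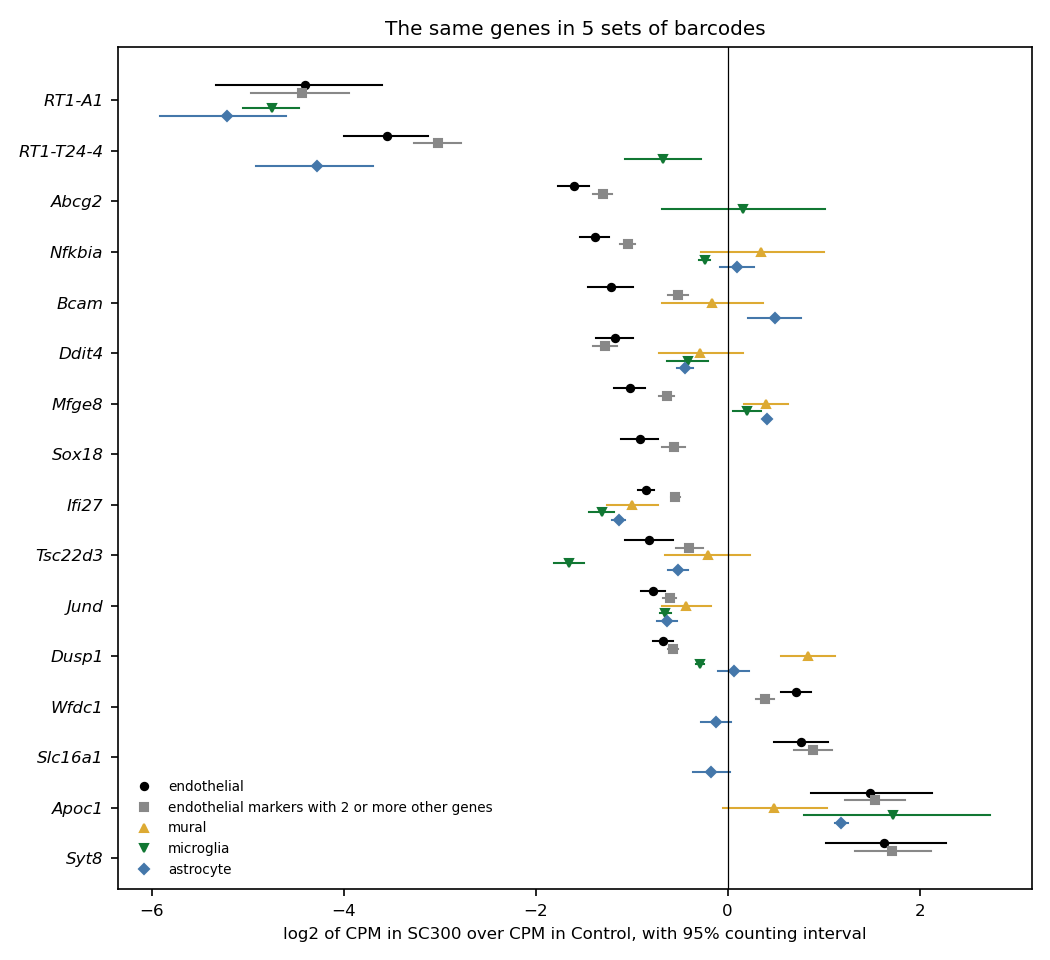
Log2 ratio of CPM in SC300 over Control (x axis) with its 95% counting interval for 16 genes in endothelial cells, in left-out barcodes with endothelial markers, and in mural cells, microglia and astrocytes; values on fewer than 50 UMIs are not drawn. *RT1-A1* and *Ifi27* lay below 0 in each set drawn, whereas the interval of *Nfkbia* included 0 in astrocytes and mural cells and *Mfge8* lay above 0 there.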

How the data were processed

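Single-cell 3′ RNA sequencing was analysed in 1 Control and 1 SC300 library, grouped by the labels. The authors deposited UMI counts per gene and barcode, made with Cell Ranger (3.0.1 in the submitters' processing notes); the methods name the Ensembl transcriptome, release 96, as reference, and the genome build was not given in the sources used here. The 32883 genes listed in both libraries were used without a doublet caller, because the selection rule drops barcodes with 2 or more genes of other cell types. The members and gene lists were chosen with earlier results of these data known.

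UMIs were summed over the endothelial cells of a library and divided by their total without 13 haemoglobin genes, giving CPM. Levels are set side by side as the log2 of SC300 over Control. Intervals (95%) were exact Poisson for CPM, Clopper-Pearson for shares and conditional binomial for ratios, and cover counting error only. A count of 0 was set to 3 UMIs over the group and is a bound. With 1 library per group no test was made.

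Named were the 12 highest and 12 lowest ratios among genes with at least 100 UMIs, with their share in 3 cells. Some of the 20 leading genes were named too, and from the lists described, members past 2-fold and abundant ones. Other lists were not described, among them those of iron and oxidative, lipid and cell cycle genes, each with 1 member more than 2-fold higher. The 12 highest and lowest ratios without genes resting on 3 cells, and *Mfge8*, *Wfdc1*, *Tie1*, *Sox18*, *Slc16a1*, *Slc38a5*, *Tfrc*, *Cdkn1a*, *Tsc22d3*, *Klf9*, *Sult1a1*, *Jund*, *Klf4* and *RT1-T24-3*, were named after their values were seen. Alternatives changed marker number, mitochondrial limit, totals, cell weights, thresholds and depth. Steps were tested on simulated data. Python 3.11.15, numpy 2.4.6, scipy 1.17.1, pandas 2.3.3 and matplotlib 3.10.9 were used. Results for 3 genes are not reported here.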

Additional observations from a re-analysis of the deposited data

Results flagged for a closer look

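Some of the genes described here, with at least 100 UMIs in the other cell type and not resting on 3 endothelial cells, had a ratio of SC300 over Control in endothelial cells that was opposite in sign to that in another cell type of the same libraries, with both counting intervals on their own side of 0. The difference between cell types was not tested, since each group is 1 library. *Mfge8* was at −1.02 in endothelial cells and at 0.41 in astrocytes, 0.20 in microglia and 0.40 in mural cells (log2). *Bcam* was at −1.22 against 0.49 in astrocytes. *Cited2* was at −1.29 against 0.29 in astrocytes and 0.13 in microglia. *Tie1* was at −0.69 against 0.49 in microglia, and *RT1-CE10* at −0.68 against 0.21 in microglia, but both were positive in endothelial cells with at most 10% mitochondrial UMIs (0.18 and 0.51) and at −0.20 and −0.16 in the left-out barcodes with endothelial markers. Of the immediate early genes, *Btg2* was at −0.44 against 0.30 in microglia and 0.41 in mural cells, *Dusp1* at −0.68 against 0.83 in mural cells and *Fos* at −0.16 against 0.27 in mural cells. *Slc27a1* was at 1.04 in endothelial cells and −0.41 in mural cells, and at −0.31 in the left-out barcodes. On fewer than 100 UMIs in mural cells, *RT1-CE10* was at 0.91 (23 and 70 UMIs), and *Car4* and *Cxcr4*, at 0.40 and 1.62 in endothelial cells, were at −2.04 (38 and 15 UMIs) and −1.53 (16 and 9 UMIs). Of other members of the lists, *Ier2* was at −0.64 against 0.55 in mural cells and *RT1-A2* at −0.64 against 0.28 in microglia.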

How the results depend on the processing

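No paired analysis was possible because each group is 1 library, and for the same reason no replicate could be left out. The ratio of the shares of endothelial cells ran from −0.50 to −0.09 on the log2 scale, within the interval of the reported ratio. Its own interval lay below 0 after thinning, where both shares were higher (8.80% and 7.23%), and with at most 20% mitochondrial UMIs (−0.62 to −0.008). The counts of genes more than 2-fold higher and lower, 126 and 42 as reported, were 48 and 26 with 4 markers required, 76 and 68 with 2, 6 and 17 (of 1468 genes) with none of the 7 other genes, 9 and 23 without the 5% of cells with most UMIs, 9 and 25 without the 3 top cells of each gene, 4 and 8 (of 1121 genes) after thinning to 2000 UMIs, 255 and 97 at 50 UMIs and 46 and 18 at 200 UMIs. With at most 20% or 10% mitochondrial UMIs 47 and 13 genes were higher, and with every cell weighted alike 64. Past 1.5-fold instead of 2-fold, 228 genes were higher and 171 lower. An alternative chosen after seeing the data, with no limit on the 7 other genes, gave 54 and 84 of 8561 genes. Under no scaling of the totals did the median of all genes shift by more than 0.0841 (log2), with haemoglobin in the totals.

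The immediate early median was −0.82 with 2 markers and −0.29 with no limit on the other genes, and the barrier transporter median −0.11 at 10% mitochondrial UMIs. The medians of the glucocorticoid-responsive (−1.04 to −0.51), immediate early and barrier lists were negative in all 16 alternatives. The interferon (−0.65 to 0.021) and RT1 class I (−1.01 to 0.24) medians turned positive in 1, at 10% mitochondrial UMIs, on 6 and 7 genes. Each of the other lists changed sign in at least 1 alternative, among them capillary in 10, caveolae 8, VEGF 7, venous 6, basement membrane and heat shock 4, junction 3, arterial 2, Wnt and growing vessel tip 1, and hormone receptors in 1 of 15. The median of the other endothelial genes turned positive with none of the 7 genes (0.11), at 20% (0.089) and 10% (0.23) mitochondrial UMIs, without the cells with most UMIs (0.0034) and with no limit (0.053). Single genes also changed sign. With none of the 7 genes, *Alox15* was at 1.14, *Cxcl12* 0.28, *Id1* 0.013, *Isg15* 0.070, *Ocln* 0.037, *Sox17* 0.11, *Tjp1* 0.12 and *Sparc* −0.083. With no limit, *Alox15* was at 0.056, *Aplnr* 0.28, *B2m* 0.026, *C1qb* −0.17, *Cxcl12* 0.029, *Egfl7* 0.044, *Ifitm3* 0.037, *Isg15* 0.41, *Klk6* −0.78, *Ramp2* 0.054 and *Slc2a1* 0.013. At 10% mitochondrial UMIs, *B2m* was at 0.30, *Egfl7* 0.24, *Ifitm3* 0.40, *Isg15* 0.071, *Jun* 0.11, *RT1-CE10* 0.51, *Ramp2* 0.18, *Slc38a5* 0.75 and *Tie1* 0.18. At 20%, *Cxcl12* was at 0.13, *Egfl7* 0.061, *Hsp90aa1* −0.42, *Ocln* 0.0070, *Ramp2* 0.030 and *Slc2a1* 0.011. With 2 markers, *C1qb* was at −0.74, *Ccl3* −2.13, *Ccl4* −1.95, *LOC691995* 0.56, *Rab3a* 0.10, *Sparc* −0.15 and *Zwint* 0.062. With 4 markers, *Cxcl12* and *Nap1l5* were both at 0.036. *Cxcl12* was at 0.096 without the cells with most UMIs, 0.048 without cells over 5% haemoglobin (chosen after seeing the data), 0.15 with cells weighted alike and 0.12 after thinning. After thinning *Ocln* was at 0.043 and *Slc2a1* at 0.0025, and without its 3 top cells *Slc2a1* was at 0.063. The causes were not tested.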
